A study of Homo sapiens with 56 samples.

Results

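The genes described here are the secreted WNT ligands, their frizzled receptors and LRP co-receptors, and the secreted antagonists of the pathway, taken from a fixed list of 39 genes. All 39 had a probe set of their own among the 18377 genes that could be read. The list holds 17 WNT genes, 10 frizzled genes, 2 co-receptors and 10 antagonists. It was named from gene families and not from values of these arrays. DKK3 had 2 probe sets, of which the higher by mean was used, and each other member had 1.

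RNA of 28 established ovarian cancer cell lines was hybridised to Affymetrix Human Gene ST arrays, with 2 arrays of each line. The lines were not treated, so the comparisons are between lines, along an epithelial–mesenchymal transition (EMT) score, and between SKOV3 and PEO1. DMEM was the base medium of 10 lines (CAOV3, CH1, DOV13, OAW28, OAW42, OVCA420, OVCA432, OVCA433, SKOV3 and TYKNU), RPMI of 9 (A2780, COLO720E, EFO21, HEY, HEYC2, OVCAR2, OVCAR3, OVCAR5 and PEO1) and DMEM/F12 of 7 (FUOV1, JHOS2, JHOS3, JHOS4, OV17R, OV56 and OV7). UWB1.289 grew in RPMI with MEGM and TOV112D in MCDB105 with M199. Serum (FBS) was at 10% for 22 lines, at 5% for OV17R, OV56 and OV7, at 20% for EFO21 and OVCAR3, and at 3% for UWB1.289. Insulin was added at 10 µg/ml for OV17R, OV56, OV7, OVCAR2, OVCAR3 and OVCAR5 and at 0.7 µg/ml for OAW28 and OAW42. Hydrocortisone was added at 0.5 µg/ml for OV56 and OV7 and at 0.4 µg/ml for OV17R, and non-essential amino acids for JHOS2, JHOS3 and JHOS4 (0.1 mM) and for EFO21, for which the labels give no molar amount. Each line is a single culture model, and nothing in the labels says whether its arrays came from separate cultures. The p-values of comparisons between lines therefore measure the spread between arrays of a line, which may be technical. Those of relations to the EMT score rest on line means.

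WNT proteins are lipid-modified secreted ligands that bind a frizzled receptor on the cell surface. With LRP5 or LRP6 as co-receptor the signal stabilises β-catenin, which acts with TCF/LEF factors on target genes, while other WNT and frizzled pairs act on cell polarity and movement without β-catenin. Dickkopf (DKK) proteins such as DKK1 block the co-receptors, which does not hold for every protein of that name. The secreted frizzled-related proteins (SFRP) and WIF1 bind the ligands.

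A group of 3 arrays stood apart from the rest: the HEYC2 array numbered 1, the OV56 array numbered 2 and the OVCA420 array numbered 1. Their log2 values had an SD of 1.84 to 1.89, and they correlated with their own duplicates at 0.748, 0.806 and 0.615 while lying nearest to each other. For the 39 members, duplicates of the other 25 lines differed by a median of 0.15 log2 units, against 1.11 in HEYC2, 0.90 in OV56 and 1.28 in OVCA420. Calls of members in these 3 lines are given with and without those 3 arrays. Among the epithelial keratins, line means ran from 9.01 to 13.74 for KRT8, from 9.18 to 13.28 for KRT18 and from 6.43 in FUOV1 to 13.33 in PEO1 for KRT19. EPCAM ranged from 4.57 to 14.53 and CDH1 from 3.88 to 11.69, with a median of 7.11. Of the Müllerian and serous genes, PAX8 ranged from 6.29 to 10.95, SOX17 from 6.93 to 10.24 and MSLN from 5.79 to 9.59. WT1 ranged from 5.83 to 9.76 (median 6.40), MUC16 from 4.99 to 9.27 (median 5.58) and EMX2 from 4.77 to 8.01 (median 5.25). Of the leukocyte genes, PTPRC was at 3.93 or below and CD3E at 5.42 or below, while CD14 reached 7.90 in CAOV3 against a median of 5.91.

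Promoter sequences from RefSeq (build GRCh38.p14), from 250 bases before to 50 bases after the transcript start that the table uses, were matched for 26 of the 39 members. That start is the edge of the annotated gene for 22 of the 26, and lies inside it for LRP5 (by 14179 bases), WNT10A (6736), WNT5A (17957) and WNT16 (3633). CpG dinucleotides are shown because the study asks about CpG methylation. Their number in the 300 bases had a median of 29.5 over these members and of 14.0 over 27305 promoters. Shown in the 5′ to 3′ direction of the gene are the members that were lower in SKOV3 than in PEO1 and had a promoter entry, with CG in capitals, and DKK1, the member with the widest range.
WNT7A, chr3:13880022-13880321, minus strand:
WNT7A: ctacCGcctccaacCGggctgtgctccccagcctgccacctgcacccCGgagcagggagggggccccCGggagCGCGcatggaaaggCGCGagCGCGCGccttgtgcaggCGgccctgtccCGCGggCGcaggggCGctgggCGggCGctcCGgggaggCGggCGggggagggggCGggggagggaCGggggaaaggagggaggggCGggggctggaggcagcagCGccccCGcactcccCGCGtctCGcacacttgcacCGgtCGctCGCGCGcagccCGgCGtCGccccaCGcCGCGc
WNT10A, chr2:218880602-218880901, plus strand:
WNT10A: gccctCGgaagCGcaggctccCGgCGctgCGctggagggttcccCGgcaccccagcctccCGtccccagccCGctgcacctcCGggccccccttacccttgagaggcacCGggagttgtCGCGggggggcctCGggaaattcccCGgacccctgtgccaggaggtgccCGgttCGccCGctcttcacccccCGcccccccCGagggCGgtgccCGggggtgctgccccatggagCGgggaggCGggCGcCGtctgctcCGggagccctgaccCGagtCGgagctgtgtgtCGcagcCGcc
FZD5, chr2:207769857-207770156, minus strand:
FZD5: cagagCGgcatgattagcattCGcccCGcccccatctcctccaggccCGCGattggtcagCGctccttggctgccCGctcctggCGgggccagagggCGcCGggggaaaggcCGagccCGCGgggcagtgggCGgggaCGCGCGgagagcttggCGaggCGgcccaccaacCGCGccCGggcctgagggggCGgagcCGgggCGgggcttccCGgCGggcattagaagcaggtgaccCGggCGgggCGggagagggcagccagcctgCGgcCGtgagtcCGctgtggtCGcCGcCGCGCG
LRP5, chr11:68312341-68312640, plus strand:
LRP5: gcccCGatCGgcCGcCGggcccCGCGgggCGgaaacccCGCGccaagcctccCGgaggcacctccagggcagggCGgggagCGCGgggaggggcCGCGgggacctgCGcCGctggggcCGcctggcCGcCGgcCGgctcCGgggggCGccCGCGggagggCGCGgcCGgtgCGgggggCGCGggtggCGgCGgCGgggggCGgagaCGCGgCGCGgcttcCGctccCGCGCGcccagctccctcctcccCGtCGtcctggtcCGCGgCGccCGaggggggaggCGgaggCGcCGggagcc
DKK1, chr10:52314031-52314330, plus strand, with the letters CTTTGA or their reverse complement TCAAAG in capitals:
DKK1: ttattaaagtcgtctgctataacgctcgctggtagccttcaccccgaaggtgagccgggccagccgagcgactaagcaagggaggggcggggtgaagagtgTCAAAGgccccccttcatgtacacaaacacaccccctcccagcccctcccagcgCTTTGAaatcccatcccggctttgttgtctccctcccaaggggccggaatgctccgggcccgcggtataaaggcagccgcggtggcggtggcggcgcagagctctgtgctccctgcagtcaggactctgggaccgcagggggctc
LRP5 held 52 CG, more than 99.2% of all promoters, WNT7A 40 (92.6%), FZD5 38 (90.3%), WNT10A 30 (77.9%) and DKK1 20 (58.8%). The letters CTTTGA, a core of TCF/LEF motifs, were searched on both strands. DKK1 held 2 such matches, which began 149 and 95 bases before the start, and was the only member of the 26 with any, while 13.1% of all promoters held at least 1. The letters AACCNGTT of the GRHL motif occurred in none of the 26 and in 1.73% of all promoters. These are matches of letters within a short window, and binding or methylation was not measured on these arrays.

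The first question was which members differed between lines. Antagonists had the widest median span and ligands the narrowest. A limma F-test over the 28 lines, with an adjusted p under 0.05 and line means that spanned at least 2 log2 units, called 20 of the 39 members, or 51.3%, where 36.1% of all genes were called. Without the 3 arrays the count was also 20, against 33.6% of all genes, and by adjusted p alone 27 members (69.2%) passed, against 65.7%. By role these were 5 of 17 ligands, 6 of 10 frizzled receptors, both co-receptors and 7 of 10 antagonists. The median span between the lowest and the highest line was 1.17 log2 units for ligands, 2.52 for frizzled receptors, 2.82 for the co-receptors and 3.59 for antagonists, against 1.72 for all genes. Levels are probe set values and are compared between lines only, never between genes.

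**Figure D1:**
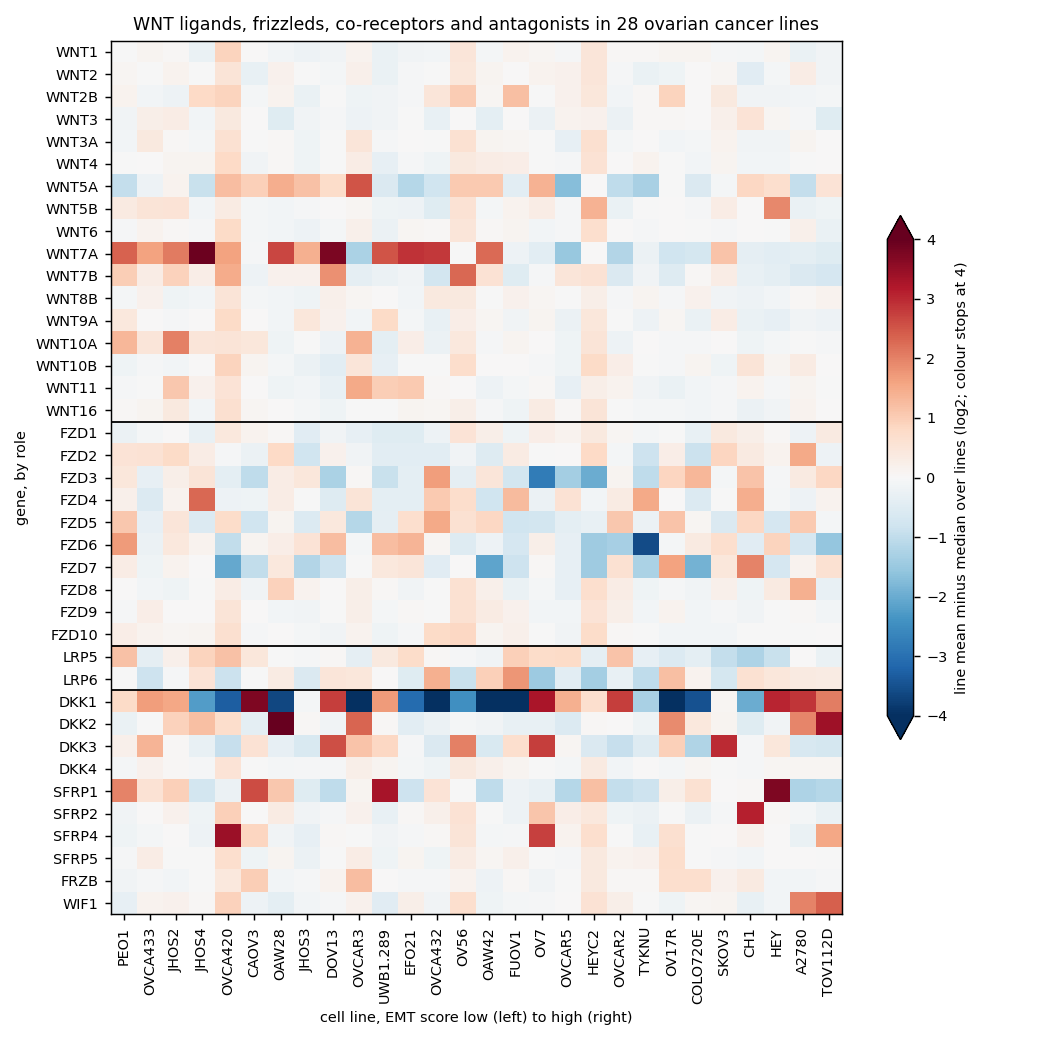
Each cell is the mean of a gene in a line minus the median of that gene over the 28 lines (log2), with genes by role from top to bottom and lines by EMT score from left to right. Broad bands of little colour belong to most WNT ligands, and DKK1 and WNT7A change colour most often.

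Among the ligands, WNT7A had the widest range. WNT7A is known for patterning the Müllerian duct in mice. Its line means ran from 5.59 in OVCAR5 over a median of 7.11 to 11.04 in JHOS4 (F-test adjusted p = 2.322e-19). JHOS4 read 10.97 and 11.11 on its arrays, DOV13 10.89 and 10.82, EFO21 9.78 and 10.25, and OVCA432 10.00 and 9.90. These 4 lines were higher than the mean of the other 27 lines, by 2.09 (OVCA432) to 3.22 log2 units (JHOS4). OVCAR5, at 5.94 and 5.25, OVCAR3, at 5.64 and 6.07, and OVCAR2, at 6.08 and 5.80, differed from the others by -2.43, -2.16 and -2.07 log2 units. In this comparison of a line with all others, a call needed an adjusted p under 0.05 over all genes and lines together and a difference of at least 2 log2 units. The high and the low lines did not overlap on any array, but they were chosen by their difference on these same arrays.

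WNT7B, a close relative of WNT7A, was highest in OV56, with 8.10 and 9.21, followed by DOV13, with 8.25 and 8.16, and ranged down to 5.64 in OVCA432. OV56 exceeded the other lines by 2.19 log2 units, and by 1.67 without the 3 arrays, which is below the minimum. The higher reading of OV56 came from the array that stands apart, and the other lay just below the DOV13 arrays.

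WNT5A, WNT5B and WNT11 belong to the ligands that often act without β-catenin. WNT5A had line means from 4.44 in OVCAR5 over a median of 6.12 to 8.64 in OVCAR3. OVCAR3 read 8.56 and 8.72, and was higher than the other lines by 2.49 ± 0.30 log2 units (SE; adjusted p = 1.027e-07, limma). OVCA420 read 6.23 on the array that stands apart and 8.50 on the other, and was higher than the rest by 2.27 log2 units without the 3 arrays, past the minimum, and by 1.17 with all. WNT5B was highest in HEY (8.14 and 8.31) and in HEYC2 (7.86 and 7.56), a line with a related name, against a median of 6.31 over lines and at most 7.09 on any array of the other 26 lines. WNT11 reached 7.61 and 7.72 in OVCAR3 and had a span of 1.85 log2 units, under the minimum. WNT10A, a ligand of skin appendages and teeth, was at 9.03 and 8.79 in JHOS2, 8.45 and 8.14 in OVCAR3 and 8.19 and 8.26 in PEO1, against a median of 6.91.

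The other 11 ligands (WNT1, WNT2, WNT2B, WNT3, WNT3A, WNT4, WNT6, WNT8B, WNT9A, WNT10B and WNT16) had spans of 0.73 to 1.48 log2 units. FUOV1 was the highest line for WNT2B, at 7.21 and 6.76, against a median of 5.77. WNT4, which is needed to form the Müllerian duct in mice, had a span of 1.14 log2 units. Of all 39 members, 12 did not pass the adjusted p of the F-test, namely WNT1, WNT2, WNT3A, WNT4, WNT6, WNT8B, WNT16, FZD1, FZD9, FZD10, DKK4 and SFRP5. Without the 3 arrays 7 of these 12 passed it, and WNT4, WNT6, WNT8B, FZD9 and DKK4 did not. Of the 19 members that were not called, 13 had their highest mean in OVCA420, OV56 or HEYC2, the lines with an array that stands apart, against 2 of the 20 that were called.

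Of the frizzled receptors, FZD6 had the widest range. FZD6 and FZD3 are known for planar cell polarity in mice. FZD6 was at 5.65 and 5.35 in TYKNU, against line means of 7.52 and above in every other line, a median of 9.08 and a highest mean of 10.79 in PEO1. TYKNU differed from the other lines by -3.61 ± 0.57 log2 units (SE; adjusted p = 1.255e-05), and was still called lower without the 3 arrays. Those arrays read FZD6 far below their duplicates, by 4.31 log2 units in OVCA420, 3.04 in HEYC2 and 3.15 in OV56. TYKNU also had the highest summed level of the endothelial list, 24.46 over 3 genes against a median of 15.71, with PECAM1 at 9.79, CDH5 at 9.28 and VWF at 5.39. EFO21, whose FZD6 was not called low, was close to it at 23.54, with PECAM1 at 9.51, CDH5 at 8.85 and VWF at 5.18. The part of such genes in the FZD6 level of TYKNU was not tested.

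FZD3 was lowest in OV7, at 4.48 on average, and OV7 differed from the other lines by -2.77 log2 units. Its highest mean was 8.95 in OVCA432. HEYC2 differed from the others by -1.91 log2 units with all arrays and by -2.08 without the 3 arrays, which passed the minimum. FZD7 was at 10.02 and 9.74 in CH1, which was higher than the other lines by 2.30 log2 units, and OAW42 was lowest, at 5.85 and 5.77. OVCA420 read 6.50 and 5.22 for FZD7, and its difference from the other lines was -2.51 log2 units without the 3 arrays, past the minimum, and -1.87 with all.

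FZD4, which is also the receptor for norrin, was highest in JHOS4, at 8.60 and 8.58, against a median of 6.30. JHOS4 was higher than the other lines by 2.14 ± 0.13 log2 units (SE; adjusted p = 2.331e-14). TYKNU followed at 7.92 and 7.72, so the line with the lowest FZD6 had the next highest FZD4. FZD5 ran from 6.07 in OVCAR3 to 8.71 in OVCA432 and FZD2 from 7.11 in COLO720E to 9.50 in A2780, and no line passed the minimum of 2 log2 units against the others for either. FZD8 had its highest mean in A2780, at 8.70 and 8.66, and a span of 1.74. FZD1, FZD9 and FZD10 had spans of 0.74 to 1.04.

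Both co-receptors differed between lines. LRP5 ran from 6.14 in CH1 over a median of 7.37 to 8.55 in PEO1 (F-test adjusted p = 2.061e-13). LRP6 ran from 7.08 in OV7 to 10.30 in FUOV1 (adjusted p = 4.265e-05), and the 3 arrays read it lower than their duplicates by 1.73 (HEYC2), 2.02 (OV56) and 2.86 log2 units (OVCA420). No line passed the minimum against the others for LRP5 or LRP6.

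DKK1, which binds LRP5 and LRP6 and keeps them from the ligand, had the widest range of all 39 members, 8.46 log2 units (F-test adjusted p = 1.29e-19). Its line means ran from 3.81 in OVCAR3 over a median of 8.52 to 12.26 in CAOV3. They were at 9 or above in 13 lines, below 6 in 9 and between these limits in 6. CAOV3 read 12.27 and 12.26, OV7 11.52 and 12.06, HEY 11.62 and 11.48, and A2780 11.45 and 11.33. At the low end, OVCAR3 read 3.63 and 3.98, OVCA432 4.02 and 3.82, FUOV1 3.34 and 4.56, and OAW42 4.08 and 4.37. Most lines were therefore either far above or far below the mean of the rest, with 11 lines called higher and 9 lower. The 11 were A2780, CAOV3, DOV13, HEY, JHOS2, OV7, OVCA433, OVCAR2, OVCAR5, TOV112D and UWB1.289. The 9 were COLO720E, EFO21, FUOV1, OAW28, OAW42, OV17R, OVCA420, OVCA432 and OVCAR3. Without the 3 arrays OVCAR5 fell just below the minimum (1.97 against 2.06 log2 units with all), and HEYC2, with 7.79 on the array that stands apart and 10.60 on the other, was higher than the rest by 2.64, against 1.27 with all. OVCA420 differed from the rest by -2.84 with all arrays and by -2.41 without the 3.

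**Figure D2:**
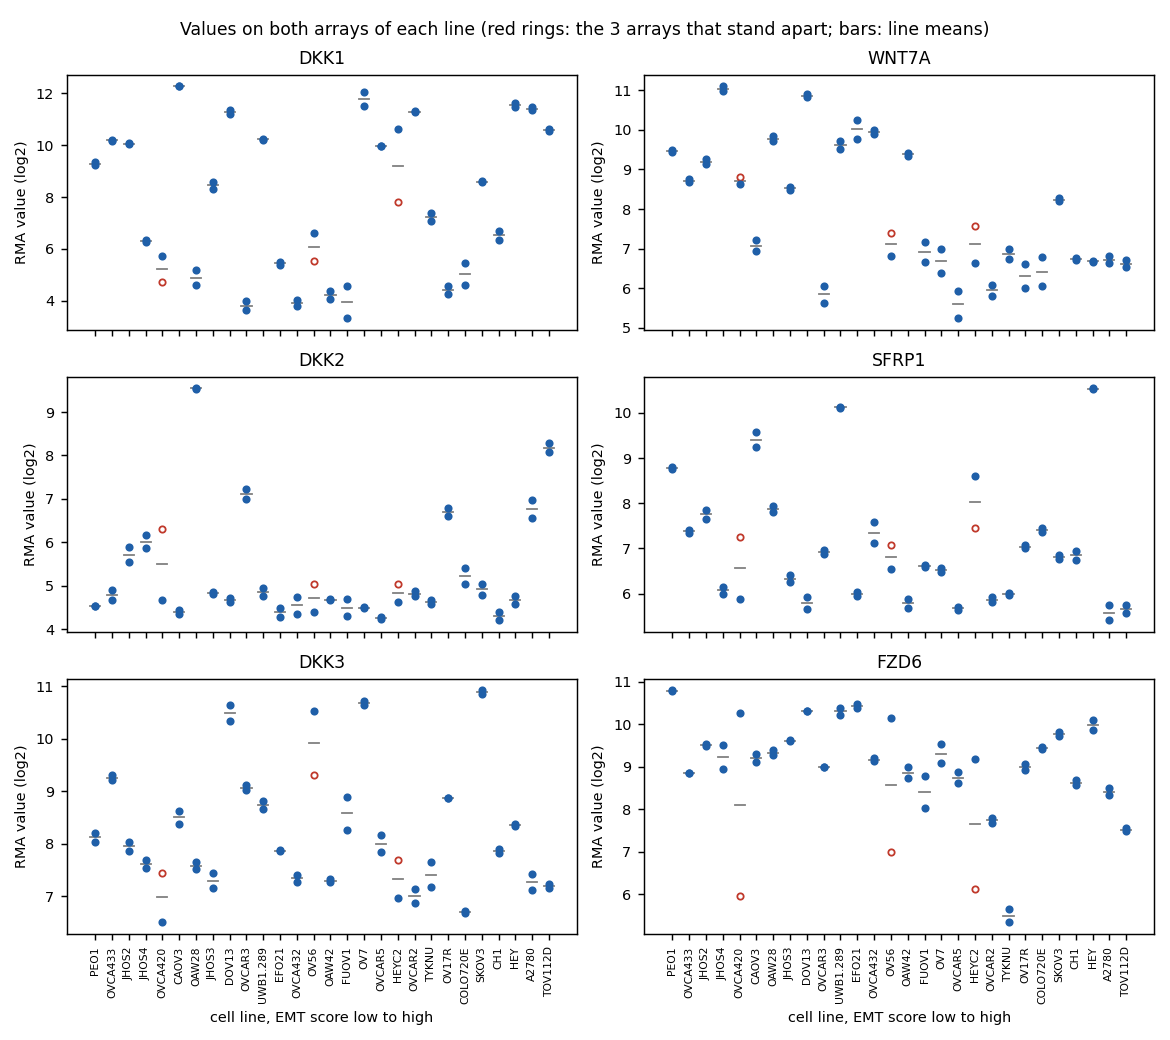
RMA values (log2) on both arrays of each line for 6 members with wide ranges, lines by EMT score from low to high; grey bars are line means and red rings the 3 arrays that stand apart. DKK1 spans 3.81 to 12.26 in line means, DKK2 and SFRP1 are high in a few lines, and FZD6 is low in TYKNU and on the 3 ringed arrays.

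DKK2, a relative of DKK1, was low in most lines, with a median of 4.80. It was at 9.55 and 9.54 in OAW28 and at 8.07 and 8.28 in TOV112D, which exceeded the other lines by 4.40 and 2.98 log2 units. OVCAR3, at 7.01 and 7.23, A2780, at 6.55 and 6.97, and OV17R, at 6.60 and 6.80, came next and did not overlap with either. OAW28 was thus high in DKK2 and low in DKK1 (5.17 and 4.60), while TOV112D was high in both.

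DKK3, a more distant member of the family, was highest in SKOV3 (10.86 and 10.92), OV7 (10.64 and 10.71) and DOV13 (10.34 and 10.64), against a median of 7.91 over lines. These lines were higher than the others by 2.77, 2.55 and 2.35 log2 units. With the mean over its 2 probe sets the differences were 1.47, 1.21 and 1.27, below the minimum. OV56, at 10.52 and on the array that stands apart 9.31, was higher by 2.40 without the 3 arrays, past the minimum, and by 1.76 with all. In the fibroblast list, OV7 had the highest summed level of all lines, 40.42 over 5 genes against a median of 25.84, with COL1A1 at 9.84, COL1A2 at 6.04, DCN at 9.03, LUM at 10.02 and PDGFRB at 5.49. SKOV3 was at 30.45 and OV56 at 30.69, and DOV13, at 24.11, had the lowest sum. TOV112D (36.55), OVCAR2 (32.93), A2780 (32.18) and CH1 (30.7) had higher sums than SKOV3 and OV56 and were not called for DKK3. The part of such genes in the DKK3 levels was not tested. DKK4 stayed between 4.42 and 5.15.

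SFRP1, which binds WNT ligands outside the cell, was at 10.52 and 10.55 in HEY, 10.13 and 10.11 in UWB1.289 and 9.57 and 9.24 in CAOV3, against a median of 6.81. These lines were higher than the others by 3.61, 3.18 and 2.44 log2 units. PEO1 came next at 8.75 and 8.81. In HEYC2 it was at 8.61 on the array that does not stand apart, below both HEY arrays. SFRP2 was at 8.16 and 7.90 in CH1, higher than the other lines by 3.03 log2 units, and at 6.31 and 5.71 in OV7, against a median of 4.91.

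SFRP4 was high in OVCA420 and OV7. OVCA420 read 8.07 and, on the array that stands apart, 6.74, and OV7 read 6.90 and 6.51, against a median of 3.97. The differences from the other lines were 3.23 and 2.50 log2 units, and 3.92 and 2.50 without the 3 arrays. TOV112D, at 5.49 and 5.51, was the third.
WIF1, a secreted inhibitor that binds WNT proteins, was at 6.55 and 6.85 in TOV112D and 6.40 and 6.15 in A2780, against a median of 4.30. TOV112D was higher than the other lines by 2.29 log2 units. OVCA420 reached 6.24 only on the array that stands apart and read 4.20 on the other. FRZB, also called SFRP3, was highest in OVCAR3, at 5.01 and 4.61, and SFRP5 had a span of 0.93.

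Counted over lines, 31 of 1092 pairs of a member and a line were higher and 14 were lower than in the other lines, or 2.84% and 1.28%, where 0.825% and 0.549% of all pairs of a gene and a line were called. DKK1 made 20 of the 45 calls. Without DKK1 there were 20 higher and 5 lower calls, so 9 of the 14 lower calls came from this gene alone. The calls without DKK1 were not set against those of all genes. The antagonists held 23 of the higher and 9 of the lower calls, the ligands 6 and 3 and the frizzled receptors 2 and 2. As genes, 12 of the 39 members were higher and 4 lower in at least 1 line, against 11.4% and 8.09% of all genes. The largest adjusted p among the 45 calls was 2.42e-05, and 41 of them held whichever array was left out.

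The lines thus differed in their repertoires. Of all genes, 0.196% (HEYC2) to 1.21% (DOV13) were called higher in a line, and 0.141% (DOV13) to 3.3% (OVCA420) lower. OV7 had most calls, with DKK1, DKK3 and SFRP4 high and FZD3 low, where 1.1% and 0.326% of all genes were called. DOV13 was high in WNT7A, DKK1 and DKK3, TOV112D in DKK1, DKK2 and WIF1, and OVCAR3 was high in WNT5A and low in WNT7A and DKK1. HEY, CAOV3 and UWB1.289 were all high in DKK1 and SFRP1. CH1 was high in FZD7 and SFRP2, and JHOS4 in FZD4 and WNT7A. HEYC2, JHOS3 and PEO1 had no call with all arrays, and without the 3 arrays HEYC2 had DKK1 high and FZD3 low.

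The next question was whether members followed the EMT state. The score was rebuilt on each array as a signed Kolmogorov-Smirnov statistic between 200 mesenchymal and 184 epithelial signature genes, and it is higher in more mesenchymal lines. No member is a signature gene. PEO1 had the lowest line score, -0.819, and TOV112D the highest, 0.720, with 14 lines below 0 and 14 above. In 5 lines the arrays scored on both sides of 0, so that their side of 0 is not settled. The scores were -0.212 (the array that stands apart) and 0.695 in HEYC2, 0.121 and -0.303 (the array that stands apart) in OV56, 0.380 and -0.332 in FUOV1, 0.522 and -0.122 in OV7, and 0.181 and -0.15 in OAW42. The arrays of FUOV1, OV7 and OAW42 correlated with their duplicates at 0.980 or above.

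No member passed an adjusted p under 0.05 by Spearman's rank correlation (permutation test over 28 lines, adjusted over 18377 genes), where 0.147% of all genes were called higher and 0.675% lower with the score. At an unadjusted p under 0.05 there were 5 members, all lower with the score, or 12.8% of members, where 10.1% of all genes passed in either direction. By Pearson's r and by a limma slope 1 member was called, WNT7A, lower in both. The shares of all genes called by these 2 tests are not given here. WNT7A was also the member called lower without the 3 arrays, where 0.794% of all genes were lower and 0.25% higher. The median rank correlation of the members was -0.023, with 16 above and 23 below 0, and that of all genes 0.012. At a limit of 0.5 in size, no member had a rank correlation above 0.5 and 3 had one below -0.5 (7.69% of members), where 1.03% and 2.07% of all genes did.

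WNT7A was nearest to a call. Its rank correlation was -0.637 ± 0.093 (jackknife SE, n = 28 lines; permutation p = 0.00044, adjusted p = 0.0532) and its Pearson's r was -0.653 (permutation p = 0.00029, adjusted p = 0.037). Without TOV112D and PEO1, the lines farthest from the median score, r was -0.630. Of the 13 lines with a WNT7A mean of 8 or above, 11 scored below 0, and the other two were OAW42 and SKOV3. Of the 15 lines below that level, CAOV3, OV56 and OVCAR3 scored below 0. OAW42 and OV56 are among the lines with arrays on both sides of 0. Without those 5 lines, an alternative chosen after seeing the data, the rank correlation was -0.568 over 23 lines (permutation test, adjusted p = 0.197). Within media the rank correlation was -0.964 over the 7 DMEM/F12 lines (exact permutation p = 0.00278), -0.358 over the 10 DMEM lines (permutation p = 0.313) and -0.117 over the 9 RPMI lines (exact permutation p = 0.776). Of the 7 DMEM/F12 lines, 3 (FUOV1, OV56 and OV7) have arrays on both sides of 0, and the 4 others are too few for a correlation. When the mean epithelial value was subtracted from the mean mesenchymal one to give the score, the DMEM/F12 value was -1.0 (exact permutation p = 0.000397, the smallest possible). The sign was the same in each medium, and the relation passed 0.05 in DMEM/F12 alone. The test of its slope between media gave an unadjusted p of 0.244.

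For LRP5, the rank correlation was -0.529 (permutation test, p = 0.00472, 0.194 after adjustment) and r was -0.492 (permutation p = 0.00864, adjusted p = 0.254), which was -0.420 without TOV112D and PEO1. Its rank correlation was -0.624, -0.533 and -0.250 within DMEM, RPMI and DMEM/F12. For WNT7B, the rank correlation was -0.517 (permutation test, p = 0.00556, 0.207 after adjustment) and r was -0.466 (permutation p = 0.0116, adjusted p = 0.283), which was -0.389 without those lines. Its rank correlation was -0.273, -0.633 and -0.750 within the 3 media. WNT9A (rank correlation -0.455) and WNT10A (-0.447) were the others with an unadjusted p under 0.05. None of these passed adjustment, and the antagonists as a group had a median rank correlation of 0.075, from -0.285 for SFRP1 to 0.217 for SFRP4. DKK1, with the widest range, had a rank correlation of 0.110 (adjusted p = 0.929).

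**Figure D3:**
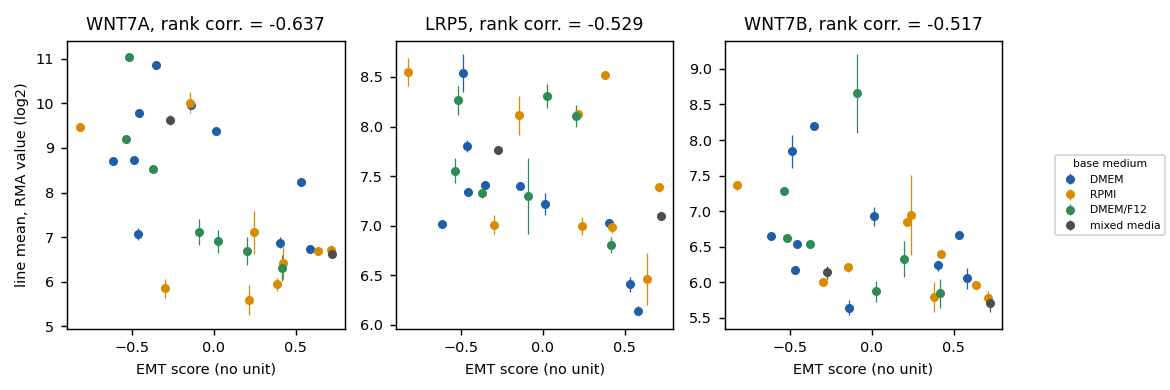
Line means (RMA value, log2) of WNT7A, LRP5 and WNT7B against the EMT score; each point is a line, vertical bars join its 2 arrays and colours give the base medium. WNT7A is at 8 or above in 13 lines, of which 11 have a score below 0.

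In a limma fit over the 26 lines in media with several lines, the slope on the score differed between media for 0 members and for 1 gene of all (0.00544%). FZD4 had the only unadjusted p under 0.05 (0.0423), and its rank correlation was 0.539 over the DMEM lines, -0.417 over the RPMI lines and -0.393 over the DMEM/F12 lines.

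SKOV3 and PEO1 were compared because the study used both in a model of lines ordered by EMT score, with SKOV3 on the more mesenchymal side and PEO1 at the epithelial end. SKOV3 had lower levels of the ligands WNT7A and WNT10A, the receptor FZD5, the co-receptor LRP5 and the antagonist SFRP1, and a higher level of DKK3. With limma, an adjusted p under 0.05 and a difference of at least 1 log2 unit, 1 of 39 members was higher and 5 were lower in SKOV3, or 2.56% and 12.8%, where 5.31% of all genes were higher and 5.46% lower. The other 33 were not called, and the median difference was 0.00 over members and -0.01 over all genes. Since each line is 1 model, the comparison is of these lines and not of EMT states.

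WNT7A read 8.20 and 8.27 in SKOV3, against 9.45 and 9.50 in PEO1, a difference of -1.24 ± 0.27 log2 units (SE; adjusted p = 0.00093). WNT10A read 6.92 and 6.90 in SKOV3, against 8.19 and 8.26 in PEO1, a difference of -1.31 ± 0.28 (adjusted p = 0.00076). FZD5 read 6.65 and 6.61 in SKOV3, against 8.42 and 8.17 in PEO1, a difference of -1.67 ± 0.29 (adjusted p = 5.28e-05). All arrays of SKOV3 lay below those of PEO1 in these genes, which were chosen by that difference on the same arrays.
LRP5 read 6.49 and 6.33 in SKOV3, against 8.69 and 8.41 in PEO1, and differed by -2.14 ± 0.19 log2 units (adjusted p = 1.18e-10). PEO1 had the highest LRP5 of all lines and SKOV3 the next to lowest. SFRP1 read 6.77 and 6.85 in SKOV3, against 8.75 and 8.81 in PEO1, a difference of -1.97 ± 0.27 (adjusted p = 1.1e-06). DKK3 read 10.86 and 10.92 in SKOV3, against 8.04 and 8.20 in PEO1, and was higher by 2.77 ± 0.28 log2 units (adjusted p = 1.94e-09), or by 1.39 with the mean over its 2 probe sets.
FZD6 read 9.81 and 9.72 in SKOV3, against 10.80 and 10.78 in PEO1. The difference of -1.02 was not called with all arrays (adjusted p = 0.528) and was called without the 3 arrays of other lines (adjusted p = 1.72e-06), which enter through the shared estimate of the spread. Without them 1 member was higher and 6 were lower, where 6.46% of all genes were higher and 6.79% lower. In the fibroblast list, SKOV3 had a sum of 30.45 against 24.66 in PEO1, and in the epithelial list of 5 genes 39.18, the lowest of all lines, against 66.51, the highest. The part of these differences in the members was not tested.

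**Figure D4:**
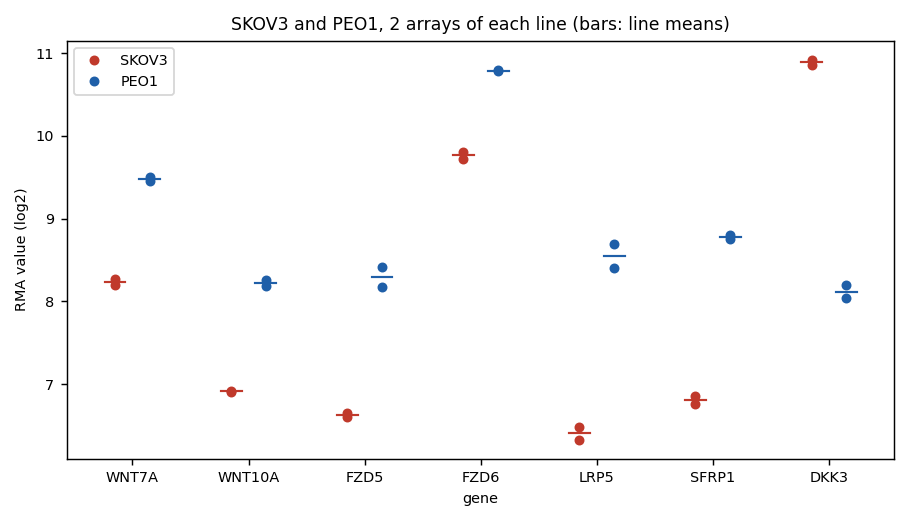
RMA values (log2) of the 6 members called between SKOV3 (red, left) and PEO1 (blue, right) and of FZD6, with points for the 2 arrays of each line and bars for line means. DKK3 is higher in SKOV3, and the others are lower.

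Other genes of the pathway were taken from 8 lists of 68 genes, of which 66 were measured. Of these, 31 (47.0%) differed between lines with a span of at least 2 log2 units, against 36.1% of all genes, and the median span was 2.18. All 6 other receptors varied, GPC4, a cell surface glypican, from 4.28 in OVCA420 to 12.12 in CH1. In the R-spondin axis 4 of 9 did. For LGR5, a receptor for R-spondins and a stem cell marker, 4 lines were called higher than the others. It was at 11.49 and 9.74 in FUOV1, 10.39 and 10.47 in OAW28 and 9.78 and 9.51 in COLO720E. WLS, which carries WNT proteins to the cell surface, was at 5.81 and 5.96 in OAW42 and at 12.23 and 12.17 in OVCA432.

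The feedback targets AXIN2 and TNFRSF19 and the nuclear factor LEF1 were each highest in TOV112D. AXIN2, which is induced by β-catenin and limits it, read 8.75 and 8.67 in TOV112D, followed by 8.09 and 7.81 in OVCA432. TNFRSF19 read 9.45 and 9.48 and LEF1 8.60 and 8.58 in TOV112D. Of the 5 feedback targets, 2 differed between lines by the rule. NKD1, NKD2 and SP5 did not. NKD1 was highest in OVCA420 and NKD2 and SP5 in HEYC2, and TOV112D was the lowest line for SP5 (6.96). TOV112D is also the line with high DKK1, DKK2 and WIF1.

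Between SKOV3 and PEO1, 2 of the 66 pathway genes were higher and 4 lower in SKOV3, or 3.03% and 6.06%, against 5.31% and 5.46% of all genes. GPC4 averaged 8.88 in SKOV3 and 5.76 in PEO1, and PRICKLE2, of the planar polarity genes, 7.76 in SKOV3 and 5.77 in PEO1. WLS averaged 7.66 in SKOV3 and 9.99 in PEO1. LGR4, an R-spondin receptor, averaged 8.94 in SKOV3 and 10.72 in PEO1, and RNF43, the ligase that removes frizzled receptors from the surface, 4.95 in SKOV3 and 6.60 in PEO1. DAAM1, of the planar polarity genes, averaged 6.05 in SKOV3 and 7.33 in PEO1. The other 7 genes of the R-spondin axis were not called, and of these ZNRF3 had a difference of 0.92, under the minimum of 1. None of the 66 was called along the score. DVL3, which relays the signal from frizzled receptors, came nearest (rank correlation -0.614, permutation test adjusted p = 0.0627), and 5 of the 66 (7.58%) had an unadjusted p under 0.05, 4 of them lower with the score, against 10.1% of all genes.

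Pairs of members were compared over the 28 lines as a description. The highest rank correlations were 0.784 for WNT6 with FZD9, 0.738 for WNT3A with WNT4, 0.730 for WNT1 with WNT5B, 0.715 for WNT4 with SFRP5 and 0.702 for FZD1 with SFRP4. Most of these genes have small spans, and without the 3 arrays the values were 0.629, 0.559, 0.403, 0.515 and 0.575. The lowest were -0.589 for WNT16 with LRP6, -0.588 for WNT10B with FZD6, -0.488 for FZD6 with SFRP5 and -0.484 for WNT4 with FZD6, which were -0.465, -0.374, -0.406 and -0.244 without those arrays. The fifth lowest was -0.471, for WNT2B with DKK1 and for WNT8B with FZD7. The rank correlation between neighbouring genes was 0.469 for WNT6 and WNT10A, 0.462 for WNT1 and WNT10B and 0.291 for WNT3A and WNT9A, and 0.312, 0.159 and 0.073 without the 3 arrays.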

How the data were processed

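The deposited values are log2 intensities that the authors obtained by RMA, with affy 1.42.3 per the submitters' processing notes. Array medians ran from 5.961 to 6.306. Which arrays were normalized together is not given in the sources used here. Of 28869 probe sets, 19310 carry 1 gene in the platform's annotation and they cover 18377 genes. Where a gene had several probe sets (685 genes), the highest by mean was kept. Arrays of a line were averaged for correlations. No column was left without a sample.

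The 56 arrays were fitted with a mean for each line in limma 3.58.1 (R 4.3.3, eBayes with trend and robust settings, 28 residual degrees of freedom). Spearman's and Pearson's coefficients used 100000 permutations of the score, whose smallest p is 1e-05, or all permutations for fewer than 10 lines. Adjustment was by Benjamini-Hochberg over all genes, and for lines against the others over all genes and 28 contrasts. The EMT score was rebuilt from 384 of the 420 signature genes in a supplementary list of the study. That list holds signature genes with EMT-correlated CpG sites, and the study's own signature was larger, so the scores are not those of the study. Both tests were checked on simulated data with independent normal noise of one SD. Those data held no array that stands apart, so the checks do not cover the effect of the 3 arrays. Other steps used Python 3.11.15.

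The members, lists and tests were chosen with earlier results of these data known. All members could be named. Values in full were due for members called between SKOV3 and PEO1, for the 12 widest spans and for lines called against the others, and pathway genes were named when called or among the 2 widest of their list. DVL3 was named after its value had been seen. Alternatives were the arrays used, a further quantile normalization, a filter that leaves 14761 genes and 35 members, a replicate block, the mean over probe sets, the variance model, other minima, other forms of the score and of the correlation, and subsets of lines. The number of arrays limits the precision. DNA methylation and chromatin data were not analysed here.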

Additional observations from a re-analysis of the deposited data

How the results depend on the processing

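The count of members that differed between lines was 20 under each setting that kept the minimum span of 2, except 20 to 21 when single arrays were left out, and 27 with a minimum of 1 or none. Of pairs of a member and a line, 31 were higher and 14 lower at the minimum of 2 log2 units, and 30 to 32 and 13 to 17 without single arrays. With a minimum of 1 in place of 2 there were 81 and 63. The share of all pairs of a gene and a line was not computed at that minimum, so these counts have no background. In SKOV3 against PEO1, leaving out single arrays gave 1 to 2 higher members and 5 lower ones. The value of 2 arose without SKOV3 replicate 2, which added FZD1 (1.08 log2 units), where the lone array is assumed to vary like the others. Along the EMT score, 1 member, WNT7A, was called lower with Pearson's r, with the limma slope, after quantile normalization, without the 3 arrays that stand apart and with the filter on low values, and 0 under the other settings. Its adjusted p ranged from 0.0133 to 0.197, the highest without the 5 lines whose arrays scored on both sides of 0. The cause was not tested. Except for the setting without the 3 arrays, the share of all genes under the settings that called WNT7A is not given here. No result changed sign. The replicate number as a block left every count as it was (20 members, 31 and 14 pairs, 1 and 5 members). Of 378 correlations between duplicate deviations, 91 were over 0.1. This count does not settle whether arrays with the same number share a source of variation. Expression on 3 arrays that differ from their duplicates limits what can be said of HEYC2, OV56 and OVCA420, and genes with low signal have no separate background estimate here.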
